A study of Mus musculus with 36 samples.

Results

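Running 2.1 km/day (HFD-25%) was compared with running 6.3 km/day (HFD-75%) in the gastrocnemius, a calf muscle made mainly of fast fibres, with 6 mice in each group and therefore 12 of the 36 libraries of the study. All 12 animals were wild-type C57BL/6 males that were 3 to 4 weeks old on arrival, and for 12 weeks all were fed pellets in which fat gave 45% of the energy. Each cage held a wheel whose brake opened when the lights went off and closed once the daily distance had been run. The distances are 25 and 75% of what mice with an open wheel covered, so the mice differ in how far and how long they ran each night, and a sedentary animal is not part of the contrast. The other groups are sedentary mice on the high-fat diet (HFD-C) or on one in which it gave 16% (NFD-C), and mice running 4.2 (HFD-50%) or 8.3 km/day (HFD-U) on the high-fat diet. Members were taken by the treatment label of each library, and 1 library is 1 mouse and 1 muscle. The hour of the day and the time since the last run at which the muscles were taken are not given in the sources used here.

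Running recruits muscle fibres through nerve impulses and calcium, and the contracting fibre consumes glycogen, fatty acids and oxygen. Within hours of a bout, muscle transcribes immediate early genes such as the NR4A receptors, while weeks of training are known for more mitochondria, more capillaries and a shift among the fast myosins. Muscle also keeps a circadian clock, in which BMAL1 and CLOCK drive the genes Per, Cry, Dbp and Ciart through E-box sequences and are later held back by their products. The comparison asks what a longer nightly distance adds at the level of RNA once the animals already run.

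Libraries held 14495389 to 22633484 counts on genes. The label of the tissue fitted its markers, since all 12 genes that define skeletal muscle were present, and Atp2a1, the calcium pump of fast fibres, had a median of 21128 CPM (counts scaled to a common library size with TMM factors) in HFD-25% and 22510 in HFD-75%. Mouse 6 of HFD-25% stood apart on the first principal component (28.6% of the variance), with the highest summed CPM of slow fibre genes (4625, against 345 to 2861 in the other mice) and of endothelial genes (1615, against 674 to 1195). The mice numbered 1 of both groups stood apart on the second (22.6%). Values without these mice are given for many of the results that they move, and leaving out other mice moved results as well.

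No gene passed edgeR's quasi-likelihood test after adjustment, and the differences seen before adjustment were small in number and mostly downward. Of 12033 genes that averaged 25 counts or more, 375 differed at a nominal p of 0.05 or less in edgeR's quasi-likelihood test (nominal meaning before adjustment), which is 3.12% of those tested, where 5% would be 602 genes. Of these, 113 (0.939%) were higher in HFD-75% and 262 (2.18%) lower. After Benjamini-Hochberg adjustment 0 genes remained, and the smallest adjusted p was 0.953. DESeq2 on the same genes gave 445 genes at a nominal p of 0.05 or less (3.7%) and 1 after adjustment (0.00832%), Map3k15 (adjusted p = 0.00234), with the next gene at 0.188. All other genes named below had an adjusted p of 0.999 in edgeR, so that they are described as differences between these mice that the adjusted test did not call. Beside many of the fold changes and standard errors (SE) from edgeR stands an exact p. It is the unadjusted two-sided p of an exact permutation test of the same gene over the 924 splits of the 12 mice. Its smallest possible value is 0.00216. This test uses the spread of that gene alone, whereas edgeR shares information among genes. A gene can therefore pass 0.05 by 1 and not by the other.

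Differences past 2-fold were few: 6 genes were at least 2-fold higher and 19 at least 2-fold lower at a nominal p of 0.05 or less. The log2 fold changes (HFD-75% minus HFD-25%, in this and every value below) from the 5th to the 95th percentile of all genes ran from -0.42 to 0.26. The median standard error was 0.16, and the median gene had a 95% interval of 0.34 on either side of its estimate, so for a gene of median precision an estimate nearer to 0 than this would not pass even the nominal limit with 6 mice a group, while genes with less spread could. Only 11 genes (0.0914%) had groups that did not overlap in CPM, a share below the 0.00216 that random splits of the mice would give. Lower in all 6 HFD-75% mice were 7 genes (0.0582%): Map3k15, Rin2, Fancm, Golm2, Apobec1, Alg6 and Prmt2. Higher were 4 genes (0.0332%): Ppan, Gm10355, Gon7 and B230354K17Rik. A gene without overlap has the smallest exact p by construction, so the missing overlap and that p are the same observation.

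**Figure D1:**
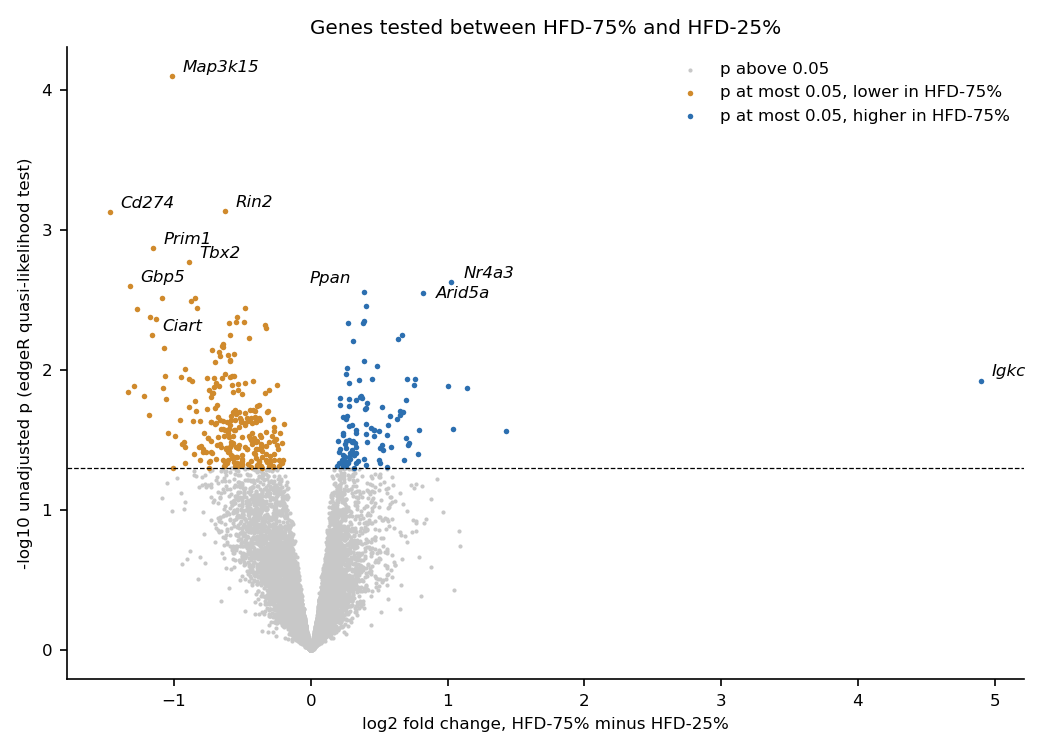
Each point is 1 of the 12033 genes tested, with the log2 fold change of HFD-75% minus HFD-25% on the horizontal axis and the negative log10 of the unadjusted p of edgeR on the vertical axis; the dashed line marks 0.05. More orange points (262, lower in HFD-75%) than blue points (113, higher) lie above the line, and Map3k15 has the smallest p, while the point far to the right is Igkc, whose value comes from 1 mouse.

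Map3k15 had the smallest p of all genes in edgeR. It encodes a kinase of the ASK family, which acts at the head of the stress-activated p38 and JNK cascades, and lies on chromosome X from 158771200 to 158906342 (GRCm39, as are all gene positions here). Its level ran from 4.31 to 5.91 CPM in HFD-25% (median 4.7) and from 1.54 to 3.12 CPM in HFD-75% (median 2.36). Every HFD-75% mouse was therefore below every HFD-25% mouse. The log2 fold change was -1.01 (SE 0.188, 95% interval -1.41 to -0.61, exact p = 0.00216). Leaving out any 1 mouse kept it between -1.1 and -0.91. The 3' end of Map3k15 overlaps that of Pdha1, a subunit of pyruvate dehydrogenase on the other strand with far more counts (a mean of 6710 per library, against 63.2), and the strand setting of the counting is not given in the sources used here. Pdha1 ran from 281 to 649 CPM in HFD-25% and from 298 to 721 CPM in HFD-75%, with a log2 fold change of 0.12 (SE 0.243). Mouse 1 had the highest Pdha1 of its group both in HFD-25% (649 CPM) and in HFD-75% (721 CPM). Reads in the overlap cannot be told apart without strand, and their part in the Map3k15 values was not tested.

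The levels of Map3k15 in all high-fat groups are given as a description. Its mean was 1.19 ± 0.327 CPM (SD, n = 6) in HFD-C and 4.83 ± 0.565 CPM at the shortest distance, HFD-25%. It was 4.16 ± 2.21 CPM in HFD-50% mice, 2.4 ± 0.546 CPM in HFD-75% mice and 2.82 ± 0.858 CPM in HFD-U mice. The group that ran least thus had the highest mean and the sedentary group the lowest, and HFD-75% and HFD-U differed by less than 1 SD.

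Rin2, an exchange factor for the endosomal GTPase RAB5, was the next gene by p in edgeR. It ran from 8.63 to 13 CPM in HFD-25% (median 10.3) and from 5.45 to 8.4 CPM in HFD-75% (median 6.51). The groups did not overlap, and the log2 fold change was -0.63 (SE 0.148, exact p = 0.00216). Tbx2, a transcriptional repressor of the T-box family, ran from 4.35 to 9.04 CPM (median 7.4) and from 2.5 to 5.09 CPM (median 3.83), with a log2 fold change of -0.89 (SE 0.234, exact p = 0.0108). In 4 of 6 HFD-75% mice Tbx2 was below the lowest HFD-25% mouse. Adgrg6, an adhesion receptor needed for myelination by Schwann cells, had means of 2.15 ± 0.637 and 1.02 ± 0.45 CPM and a log2 fold change of -1.09 (SE 0.308, exact p = 0.00866). It overlaps the more abundant Gm10335 on the other strand (mean counts of 260.8 and 28), so its reads cannot be told apart from those of that feature without strand.

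**Figure D2:**
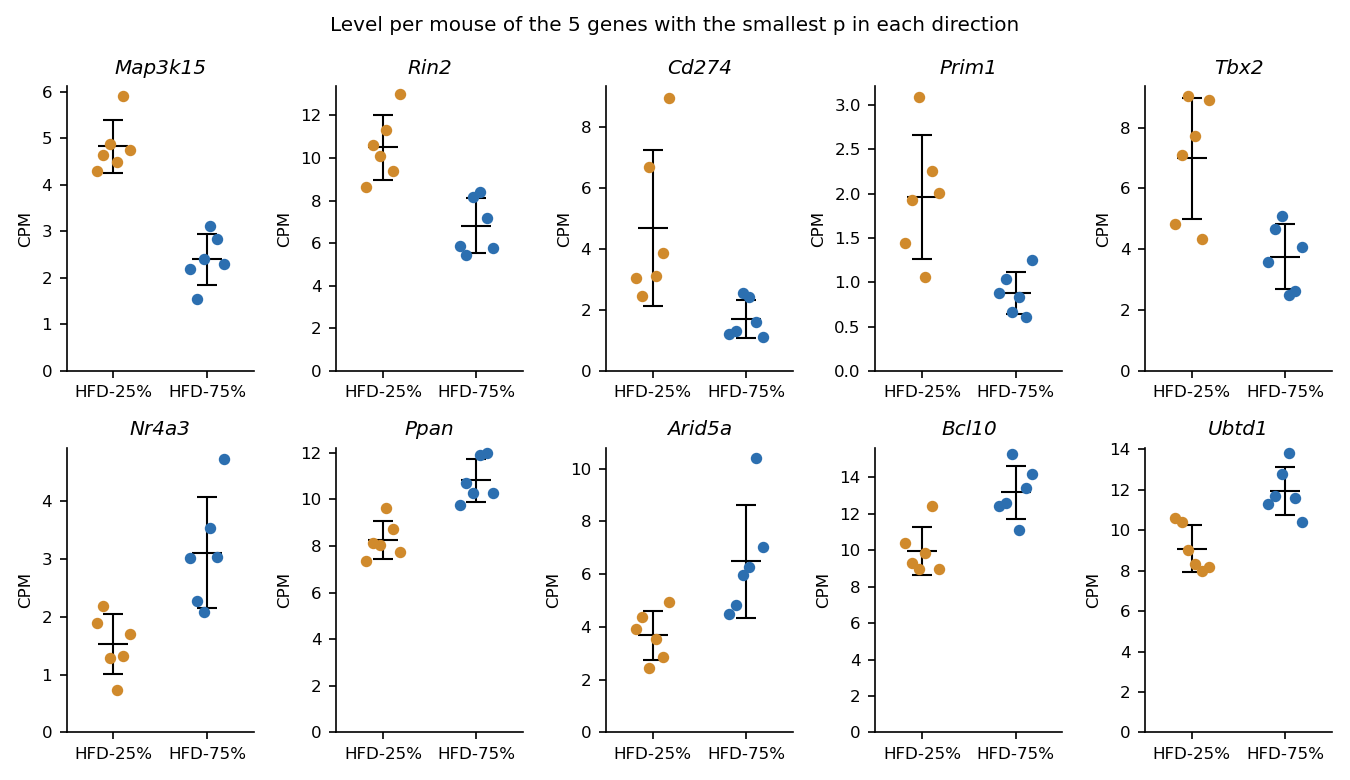
CPM (library-scaled counts, vertical axes from 0) of the 5 top genes by p on either side, with 1 point per mouse, in the order of mouse numbers from left to right, and the mean with its SD as black bars. The top row was lower in HFD-75%, with no overlap for Map3k15 and Rin2; the bottom row was higher in HFD-75%, with no overlap for Ppan.

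Of the 38 gene lists, that of interferon-stimulated genes had the lowest median, a rank that it lost to the macrophage list without mouse 6 of HFD-25% and to the slow fibre list without mouse 5 of HFD-75%. Interferons are antiviral and immune cytokines that induce antiviral enzymes, guanylate-binding GTPases and the machinery that loads peptides on MHC class I molecules. Cd274, which encodes the checkpoint ligand PD-L1 that restrains T cells (chromosome 19, 29339428 to 29365495), ran from 2.45 to 8.96 CPM in HFD-25% (median 3.5) and from 1.12 to 2.55 CPM in HFD-75% (median 1.47). In 5 of 6 HFD-75% mice it was below every HFD-25% mouse, and the highest values, 6.69 and 8.96 CPM, were those of mice 3 and 6 of HFD-25%. Its log2 fold change was -1.47 (SE 0.347, 95% interval -2.21 to -0.73, exact p = 0.00433). It was -1.18 without mouse 6 and -1.34 without mouse 3 of HFD-25%.

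Gbp5, an interferon-induced GTPase that attacks intracellular pathogens and activates inflammasomes (chromosome 3, 142202695 to 142228105), ran from 1.74 to 11 CPM in HFD-25% (median 5.69) and from 1.72 to 3.35 CPM in HFD-75% (median 2.47). All but 1 of the HFD-25% mice were above every HFD-75% mouse, and mice 3 and 6 were again the highest, at 11 and 9.57 CPM. The log2 fold change was -1.32 (SE 0.365, exact p = 0.0303), -1.08 without mouse 3 and -1.16 without mouse 6. Xaf1, an interferon-induced antagonist of an inhibitor of apoptosis, had means of 5.61 ± 2.14 and 3.06 ± 0.546 CPM (log2 fold change -0.87, SE 0.249, exact p = 0.0173).

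All 20 tested members of the list of interferon-stimulated genes had a log2 fold change below 0, with a median of -0.56, while 50.9% of all genes tested were above 0 and the median of all genes was 0.00296. At the nominal limit of 0.05, 3 of the 20 were lower, against 2.18% of all genes tested. These were Rsad2, the antiviral enzyme viperin (-0.87, SE 0.303, exact p = 0.0411), Usp18, the protease that removes ISG15 (-0.81, SE 0.321, exact p = 0.0281), and Oas2, which makes the activator of RNase L (-0.92, SE 0.397, exact p = 0.0887). Rsad2 ran from 3.25 to 12.4 CPM (median 5.5) and from 2.3 to 5.23 CPM (median 3.3). B2m, the light chain of MHC class I and the most abundant member, had means of 107 ± 31.2 and 78.5 ± 23.3 CPM (-0.45, SE 0.215, exact p = 0.0952). Ifit1 had the lowest fold change of the list (-0.98, SE 0.48, exact p = 0.24).

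The summed level of the interferon list ran from 174 to 359 CPM in HFD-25% and from 135 to 239 CPM in HFD-75%, and 6 of its 26 genes had mean counts under 25 and were not tested. Without mouse 6 of HFD-25% the median of the list was -0.29. In that refit 1 member had a nominal p of 0.05 or less, as did 2.04% of all genes. Without that mouse Rsad2 was at -0.56 and kept a nominal p under the limit, while Usp18 (-0.57) and Oas2 (-0.65) did not. The median was -0.38 without mouse 3 of HFD-25%, -0.45 without mouse 6 of HFD-75% and -0.47 without mouse 2 of HFD-75%. It was -0.33 with a minimum mean count of 100. Without mouse 2 of HFD-25% it was -0.71 with 11 members at that limit, where 4.73% of all genes were.

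Genes outside that list, chosen after their values were seen, lay on the same side. Nlrc5, the transactivator of MHC class I genes, had means of 3.79 ± 1.89 and 1.57 ± 0.7 CPM (-1.27, SE 0.369, exact p = 0.0195). Irf1, a transcription factor that interferon gamma induces, was lower as well (-0.57, SE 0.256, exact p = 0.102). Of 14 tested GTPases of the Gbp and Irg families, 5 were lower at a nominal p of 0.05 or less (Gbp5, Gbp7, Gbp9, Gbp4 and Tgtp2), with a median of -0.71, and the share of all genes that were lower at that limit was 2.18%. A family of MHC class I presentation was taken to include the checkpoint ligand gene Cd274, which is not a presentation gene. Of its 21 tested genes, 6 were lower at that limit (Cd274, Nlrc5, H2-Q4, Tap2, Tapbp and H2-K1), against the same 2.18%. The median was -0.35. Both families were picked with these values in view, so their counts support nothing. Tap2, a subunit of the peptide transporter, was at -0.48 (SE 0.191, exact p = 0.0606) and its partner Tapbp at -0.25 (SE 0.105, exact p = 0.0433). The class I heavy chain H2-K1 was at -0.35 (SE 0.159, exact p = 0.0779). The Gbp, Irg and H2 genes have near-identical copies, and how reads were divided among the copies is not known. Cish, a feedback inhibitor that cytokine receptors induce through STAT5, ran from 12.3 to 72.5 CPM (median 56.1) and from 5.65 to 35.8 CPM (median 18), with a log2 fold change of -1.22 (SE 0.445, exact p = 0.0779).

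Endothelial and macrophage markers mostly lay below 0 as well. Medians of the other lists of non-fibre cells, given at the end, ran from -0.06 to 0.09. Of 23 tested endothelial genes, 21 were below 0, with a median of -0.3 and 0 at a nominal p of 0.05 or less in edgeR, and of 16 tested macrophage genes 14 were below 0, with a median of -0.28 and likewise 0. The lowest endothelial member was Car4, a capillary carbonic anhydrase (-0.54, SE 0.316), and the lowest macrophage member was Cd68 (-0.55, exact p = 0.0563). Defining macrophage genes such as Adgre1, Itgam and Tyrobp were among 6 of 22 with mean counts under 25, and no gene of either list was at 0 in all 12 libraries. Without mouse 6 of HFD-25%, the endothelial median was -0.05 and the macrophage median -0.31. The endothelial median was also -0.18 without mouse 3 of HFD-25%. Without mouse 1 of HFD-25% it was -0.44, and 6 members had a nominal p of 0.05 or less. In that refit 6.74% of all genes did. The macrophage median ran from -0.12 (without mouse 2 of HFD-75%) to -0.45 (without mouse 4 of HFD-75%). Without the latter mouse, 4 members were at that limit, against 3.65% of all genes. The macrophage median was -0.13 without mouse 2 of HFD-25%. Without the mice numbered 1 of both groups, 4 endothelial and 2 macrophage members were at that limit, against 6.05% of all genes. In whole muscle, fewer cells of a type and less RNA per cell cannot be told apart, and the part of these cells in the interferon values was not tested. Dll4 and Notch1, a ligand and a receptor of vessel sprouting, were both at -0.61 (SE 0.267 and 0.25, exact permutation p of 0.156 and 0.143), and without mouse 6 they were at -0.41 and -0.4. Genes of this Notch group, chosen after their values were seen, had a median of -0.25 over 15 tested.

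**Figure D3:**
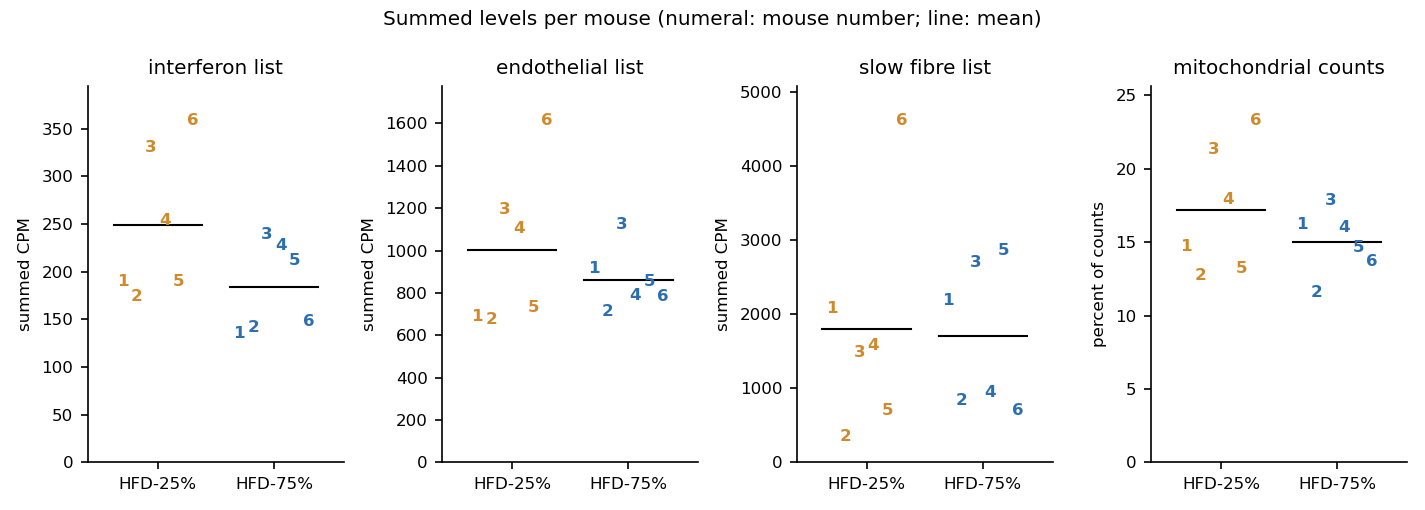
Summed CPM of the interferon-stimulated, endothelial and slow fibre lists, and the percent of counts on mitochondrial genes, with each numeral marking the mouse of that number and the line the group mean. Mouse 6 of HFD-25% has the highest value in all 4 panels (359, 1615 and 4625 CPM, and 23.3%), and the groups overlap in each.

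The circadian clock genes lay apart by phase. Of 14 genes that peak with Dbp, 12 were below 0, with a median of -0.3, and all 6 tested genes that peak with Bmal1 were above 0, with a median of 0.3. At a nominal p of 0.05 or less, Ciart and Per2 of the first list were lower and Cry1 of the second was higher. The shares of all genes at that limit were 2.18% and 0.939%. Ciart, a repressor of BMAL1 and CLOCK (chromosome 3, 95785812 to 95789775), ran from 3.29 to 16.6 CPM in HFD-25% (median 10.1) and from 2.07 to 7.75 CPM in HFD-75% (median 4.32). In 4 of 6 HFD-25% mice it was above every HFD-75% mouse, and the log2 fold change was -1.16 (SE 0.359, exact p = 0.0411). Per2, a core repressor, was at -0.41 (SE 0.174, exact p = 0.0758) and at -0.25 without mouse 6 of HFD-25%. Tef, the most abundant gene of the Dbp phase, was at -0.14 (SE 0.11), Dbp itself at -0.46 (SE 0.308, exact p = 0.219) and Nr1d1, which encodes the repressor REV-ERB alpha and overlaps Thra on the other strand, at -0.37 (SE 0.252, exact p = 0.255).

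Cry1, the repressor that peaks latest in the cycle, ran from 8.52 to 15.4 CPM in HFD-25% (median 12.2) and from 14.2 to 17.9 CPM in HFD-75% (median 16.3). In 4 of 6 HFD-75% mice it was above every HFD-25% mouse (0.39, SE 0.13, exact p = 0.00866). Arntl, which encodes BMAL1, varied from 5.24 to 23.1 CPM in HFD-25% and from 8.19 to 33.3 CPM in HFD-75%, with a log2 fold change of 0.55 (SE 0.406, exact p = 0.255), so its spread within a group exceeded the difference between the groups. The highest Arntl of HFD-25% was that of mouse 2, which also had the lowest Ciart (3.29 CPM), and the highest of HFD-75% was that of mouse 5, with the lowest Ciart of all 12 mice (2.07 CPM). Without mouse 5 of HFD-75%, the medians of the lists were -0.2 for the Dbp phase and 0.1 for the Bmal1 phase. The hour of sampling in each group is not known, and a difference in hour and a difference in running distance cannot be told apart here.

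The promoters of Ciart and Cry1 are shown because both carry the E-box CACGTG that BMAL1 and CLOCK bind, while their levels lay in opposite directions. They are printed from RefSeq (GRCm38.p6, minus strand, chr3:95882179-95882478 and chr10:85185005-85185304, from 250 bases before to 50 after the start), with each CACGTG, which reads the same on both strands, in capitals.
Ciart promoter: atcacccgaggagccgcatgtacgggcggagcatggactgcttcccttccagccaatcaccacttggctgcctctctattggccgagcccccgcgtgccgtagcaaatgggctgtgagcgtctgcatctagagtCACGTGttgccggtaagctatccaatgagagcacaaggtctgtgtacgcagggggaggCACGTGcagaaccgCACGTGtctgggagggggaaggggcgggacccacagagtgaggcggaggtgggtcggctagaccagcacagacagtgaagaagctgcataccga
Cry1 promoter: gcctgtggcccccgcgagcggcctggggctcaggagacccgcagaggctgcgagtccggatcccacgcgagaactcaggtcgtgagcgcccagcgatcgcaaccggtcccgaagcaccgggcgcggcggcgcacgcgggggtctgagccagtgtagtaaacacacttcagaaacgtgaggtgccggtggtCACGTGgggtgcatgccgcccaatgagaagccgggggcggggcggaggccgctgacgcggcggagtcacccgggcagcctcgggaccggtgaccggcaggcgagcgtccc
Ciart holds 3 matches and Cry1 holds 1. Among 32544 promoters, 7.17% hold at least 1 CACGTG and 0.0891% hold 3 or more.

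Genes that respond within hours to contraction or stress gave both directions. Nr4a3, an orphan nuclear receptor that exercise induces in muscle (chromosome 4, 48045098 to 48086446), had the smallest p of the higher genes. It ran from 0.74 to 2.19 CPM in HFD-25% (median 1.52) and from 2.08 to 4.73 CPM in HFD-75% (median 3.03). In 5 of 6 HFD-75% mice it was above every HFD-25% mouse, with a log2 fold change of 1.03 (SE 0.281, 95% interval 0.43 to 1.63, exact p = 0.00433). Its mean in sedentary HFD-C mice was higher still, at 5.22 ± 3.74 CPM, with a wide spread. Nr4a1, the most abundant gene of the immediate early list, lay the other way, with means of 201 ± 60.9 and 154 ± 38.8 CPM (-0.38, SE 0.224, exact p = 0.223).

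Of 24 tested immediate early genes, 3 were higher (Nr4a3, Klf10 and Myc) and 2 lower (Csrnp1 and Ier5) at a nominal p of 0.05 or less, against 0.939% and 2.18% of all genes, and the median was -0.03. Klf10, a transforming growth factor beta-inducible repressor, was at 0.52 (SE 0.196, exact p = 0.0649), and Myc, a driver of growth and ribosome synthesis, was at 0.52 (SE 0.225, exact p = 0.0606). Without mouse 5 of HFD-75%, they were at 0.38 and 0.42 and the nominal p of both was above 0.05. Csrnp1 was at -0.79 (SE 0.345, exact p = 0.0649) and Ier5, a cofactor of the heat shock factor, at -0.36 (SE 0.157, exact p = 0.0411). Without mouse 6 of HFD-25% the nominal p of Csrnp1 was above 0.05, and so was that of Ier5 without mouse 1 of HFD-25%, whose 35.6 CPM was the highest value (log2 fold change -0.18).

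The other genes with the smallest p among those higher in HFD-75% have varied roles. Ppan, a factor for the large ribosomal subunit, ran from 7.36 to 9.62 CPM (median 8.08) and from 9.76 to 12 CPM (median 10.5), without overlap (0.39, SE 0.109, exact p = 0.00216). Arid5a, an RNA-binding protein that stabilises inflammatory messengers, ran from 2.45 to 4.94 CPM (median 3.73) and from 4.47 to 10.4 CPM (median 6.11), and 4 of 6 HFD-75% mice were above every HFD-25% mouse (0.82, SE 0.231, exact p = 0.00866). Bcl10, an adaptor that activates NF-kappa B, was at 0.4 (SE 0.116, exact p = 0.00433). Ppp1r15a, which directs a phosphatase to eIF2 alpha and so ends the integrated stress response, had means of 14.7 ± 3.19 and 22.8 ± 7.62 CPM (0.64, SE 0.199, exact p = 0.0216). Sesn2, a stress-induced inhibitor of mTORC1 chosen after its value was seen, was at 0.71 (SE 0.245, exact p = 0.0152). Of 13 tested genes of the integrated stress response, 3 were higher at a nominal p of 0.05 or less, against 0.939% of all genes. These were Ppp1r15a, Sesn2 and Eif2b4, and the family median was 0.12. The family was also picked with its values in view, so its count supports nothing. Further differences were those of the ubiquitin-like protein gene Ubtd1 (0.39, SE 0.116), the minor spliceosome gene Zmat5 (0.38, SE 0.115), the Golgi tether subunit Cog8 (0.27, SE 0.0811), the orphan receptor Nr2f6 (0.31, SE 0.0976) and the predicted gene Gm10355 (0.67, SE 0.207).

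Some genes of DNA replication and repair had lower values in HFD-75%, and were picked out after the values were seen. Prim1, the catalytic subunit of DNA primase (chromosome 10, 127851084 to 127865899), ran from 1.06 to 3.09 CPM in HFD-25% (median 1.97) and from 0.606 to 1.25 CPM in HFD-75% (median 0.857). In 5 of 6 HFD-75% mice it was below every HFD-25% mouse (-1.16, SE 0.294, exact p = 0.00433). Fancm, a DNA translocase of the Fanconi pathway, ran from 1.9 to 3.88 CPM (median 2.25) and from 0.998 to 1.84 CPM (median 1.4), without overlap (-0.85, SE 0.241, exact p = 0.00216). Of 39 tested repair and checkpoint genes, 11 were lower and 1 was higher at a nominal p of 0.05 or less. The shares of all genes were 2.18% and 0.939%. The family median was only -0.08, and 28 members were below 0. This family was also picked with its values in view, so its count supports nothing. Among the lower members were the helicase gene Wrn (-0.53, SE 0.189, exact p = 0.00433), the cohesin-like Smc5 (-0.33, SE 0.0996, exact p = 0.00649) and the checkpoint kinase gene Chek2 (-1.18, SE 0.457, exact p = 0.0628). Chek2 overlaps the more abundant Hscb on the other strand. Prim1, Chek2 and Fancm averaged 25.3, 30.8 and 35.3 counts over the 12 libraries, near the minimum of 25. Their higher counts in HFD-25% helped them to pass it.

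**Figure D4:**
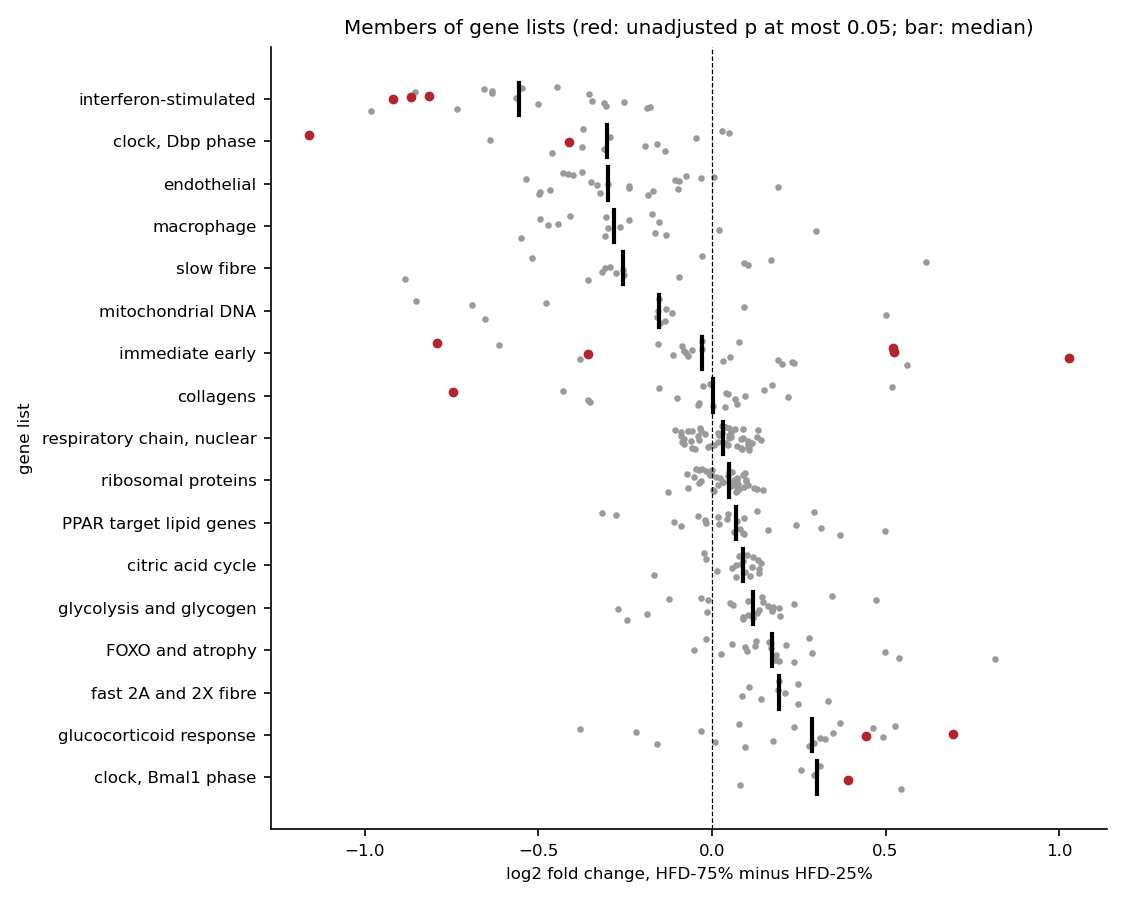
Each point is 1 tested gene of the list on the vertical axis, at its log2 fold change of HFD-75% minus HFD-25% on the horizontal axis. Red points have a nominal p of 0.05 or less in edgeR, and the bars are list medians, which run from -0.56 for interferon-stimulated genes to 0.3 for clock genes of the Bmal1 phase.

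Most glucocorticoid and atrophy genes had fold changes above 0. Of 20 genes that glucocorticoids induce, 16 were above 0, with a median of 0.29. At a nominal p of 0.05 or less 2 were higher, against 0.939% of all genes. These were the metallothioneins Mt1 (0.44, SE 0.179, exact p = 0.0455) and Mt2 (0.69, SE 0.29, exact p = 0.0606). Mouse 2 of HFD-75% had 35.8 CPM of Mt2, against 11.4 to 17.1 CPM in the rest of its group, and without it the nominal p of both genes was above 0.05, with Mt1 at 0.35 and Mt2 at 0.39. The list median was 0.18 without mouse 3 of HFD-25% and without mouse 2 or 5 of HFD-75%, and 0.19 without mouse 6 of HFD-25%. With 1 mouse left out, 0 (without mouse 3 of HFD-25% or mouse 2 of HFD-75%) to 4 (without mouse 3 or 4 of HFD-75%) of its members had a nominal p of 0.05 or less. In those refits, in the same order, 2.07%, 2.42%, 3.91% and 3.65% of all genes did. Fkbp5, the classic glucocorticoid-induced chaperone, had means of 169 ± 62.6 and 181 ± 58.4 CPM (0.1, SE 0.271), and Glul, which makes glutamine and was the most abundant member, had means of 659 ± 267 and 839 ± 222 CPM (0.35, SE 0.269). Of 22 genes of FOXO signalling and atrophy, 20 were above 0, with a median of 0.17 and 0 at a nominal p of 0.05 or less in edgeR. This count was 4 without mouse 2 of HFD-25%, where 4.73% of all genes were at that limit. It was 2 without the mice numbered 1, where 6.05% of all genes were. The list median was 0.26 without mouse 1 of HFD-25%. Trim63, the muscle ubiquitin ligase MuRF1, had the largest value of these (0.81, SE 0.412, exact p = 0.167), from 194 to 868 CPM in HFD-25% and from 330 to 1806 CPM in HFD-75%. The highest value was that of mouse 5 of HFD-75%, without which the log2 fold change was 0.42.

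Fuel genes had small estimated differences. None of the 50 tested nuclear genes of the respiratory chain, 19 of the citric acid cycle, 27 of glycolysis and glycogen, 24 lipid genes that PPARs control, 17 of their regulators or 46 ribosomal protein genes had a nominal p of 0.05 or less in edgeR, and their medians lay between 0.03 and 0.12. Atp5b, a subunit of ATP synthase, had means of 2616 ± 476 and 2741 ± 300 CPM (0.07, SE 0.139, 95% interval -0.23 to 0.37). Pdk4, which turns the muscle from glucose to fat by inhibiting pyruvate dehydrogenase, was at 0.5 (SE 0.242, exact p = 0.0931), from 708 to 1912 CPM in HFD-25% and from 1318 to 2643 CPM in HFD-75%. Slc2a4, the insulin-regulated glucose transporter GLUT4, was at 0.1 (SE 0.131), and Perm1, a muscle regulator of mitochondrial genes, at 0.19 (SE 0.32). The 13 tested genes of the mitochondrial genome had a median of -0.15, led in abundance by COX1 (-0.13, SE 0.202).

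The myosins of fast 2A, 2X and 2B fibres and of slow fibres overlapped between the groups. Myh4, of the fastest fibres, was at 0.15 (SE 0.261), Myh1, of 2X fibres, at 0.33 (SE 0.437), Myh2, of 2A fibres, at 0.25 (SE 0.525) and Myh7, of slow fibres, at -0.36 (SE 1.01). Each of these directions turned when 1 library was left out. Myh1 was at -0.29 and Myh2 at -0.52 without mouse 1 of HFD-75%, and Myh7 was at 0.37 and Myh4 at -0.01 without mouse 6 of HFD-25%. The intervals, such as -2.5 to 1.79 for Myh7, leave sizeable differences undetected. Of 21 collagen genes, Col8a1 was lower at a nominal p of 0.05 or less (-0.74, SE 0.341, exact p = 0.165), against 2.18% of all genes. Cilp, a cartilage and tendon matrix protein, ran from 13.1 to 36.2 CPM (median 20.9) and from 3.22 to 18.6 CPM (median 10.7) (-1.07, SE 0.342, exact p = 0.0152). In 4 of 6 HFD-75% mice Cilp was below every HFD-25% mouse, and 10 of the 15 tendon, cartilage and bone genes, among them Tnmd and Acan, had mean counts under 25.

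Single members had a nominal p of 0.05 or less in further lists, where 0.939% of all genes were higher and 2.18% lower at that limit. In cholesterol synthesis, Mvd (-0.76, SE 0.263, exact p = 0.0216) and Cyp51 (-0.41, SE 0.156, exact p = 0.0108) were lower and Insig1, which holds the pathway back, was higher (0.32, SE 0.137, exact p = 0.0216), while the median of 19 tested genes was 0.03. Mouse 6 of HFD-25% had 16.4 CPM of Mvd, and without it the log2 fold change was -0.41. Among 23 antioxidant genes, Srxn1 (0.36, SE 0.133, exact p = 0.039) and Sod1 (0.26, SE 0.118, exact p = 0.0671) were higher. Igf1, the growth factor, was lower among 21 myokine genes (-0.57, SE 0.258, exact p = 0.0931), as was Hdac9, a repressor tied to innervation, among 9 denervation genes (-0.93, SE 0.393, exact p = 0.113). Many nominal calls among the named genes were lost with 1 mouse left out, some of them with any of several mice. Of the genes without overlap, Alg6 lost its call without mouse 4 of HFD-25% and Prmt2 without mouse 5 of HFD-25%. Without mouse 6 of HFD-25% the nominal p was above 0.05 for Irf1 (-0.41), Tap2 (-0.33), H2-K1 (-0.28), Tapbp (-0.2), Dll4 (-0.41), Notch1 (-0.4), Oas2 (-0.65), Usp18 (-0.57), Col8a1 (-0.58) and Hdac9 (-0.63). It was so too for Csrnp1, Myc, Mt2, Insig1, Sod1, Per2, Xdh and Phyhd1. Without mouse 3 of HFD-25% it was above 0.05 for Gbp4 (-0.89) and Igf1 (-0.47), among others. Without mouse 1 of HFD-25% it was above 0.05 for Cyp51 (-0.35), Mt1, Mt2, Sod1, Hdac9, Csrnp1, Ier5, Tapbp and B230354K17Rik. Insig1 (0.23, without mouse 5) and Sod1 (0.21, without mouse 3) lost theirs when a HFD-75% mouse was left out. In the joint fit of the 4 exercise groups, Srxn1, Sod1, Mt1 and Mt2 had a nominal p above 0.05.

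Aldh9a1, an enzyme of carnitine synthesis (chromosome 1, 167177532 to 167196099), is among the 12 genes that the study had taken from its dose-response analysis of these same animals, so the set is not independent evidence of any direction. It ran from 17.8 to 48.1 CPM in HFD-25% (median 34.5) and from 11.2 to 29.5 CPM in HFD-75% (median 18.6). In 4 of 6 HFD-25% mice it was above every HFD-75% mouse (-0.83, SE 0.241, exact p = 0.0238). Of the 12, Xdh, the xanthine dehydrogenase of purine breakdown (-0.63, SE 0.255, exact p = 0.115), and Phyhd1 (-0.25, SE 0.106, exact p = 0.0368) were also lower and Klf10 was higher, while Aldh1l1, an enzyme of folate metabolism (-0.4, SE 0.208), Fibin (0.59, SE 0.311), Pik3r1 (0.46, SE 0.242), Foxo1 (0.24, SE 0.259), Car4, Fkbp5, Sesn1 (0.1, SE 0.196) and Lars2 (-0.07, SE 0.217) had a p above 0.05. At a nominal p of 0.05 or less, 1 of the 12 was higher and 3 were lower, against 0.939% and 2.18% of all genes. Without mouse 6 of HFD-25% Xdh was at -0.38 and Phyhd1 at -0.19, and the nominal p of both was above 0.05.

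The 2 distances were also set beside the other exercise groups. By the same test, 2.69% of genes differed at a nominal p of 0.05 or less between HFD-25% and HFD-50%, 5.1% between HFD-25% and HFD-U, 5.37% between HFD-50% and HFD-75%, 5.57% between HFD-75% and HFD-U and 12.4% between HFD-50% and HFD-U, where 1 gene passed the adjusted test. These pairs share animals with each other. Among the 20 genes with the smallest p for HFD-75% against HFD-25%, the HFD-50% mean lay between the other two in 16, the HFD-U mean in 18 and the HFD-C mean in 14, which is given as a description, since the genes were picked for the distance between HFD-25% and HFD-75%. Cd274 had means of 2.6 ± 0.996 CPM in HFD-C mice, 4.69 ± 2.57 CPM in HFD-25% mice, 3.75 ± 1.41 CPM in HFD-50% mice, 1.7 ± 0.632 CPM in HFD-75% mice and 2.3 ± 1.04 CPM in HFD-U mice. Ciart had its highest mean in HFD-U, at 17.3 ± 5.95 CPM, against 10.4 ± 5.09 in HFD-25% and 4.68 ± 1.98 in HFD-75%, so its level did not follow the order of the distances.

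**Figure D5:**
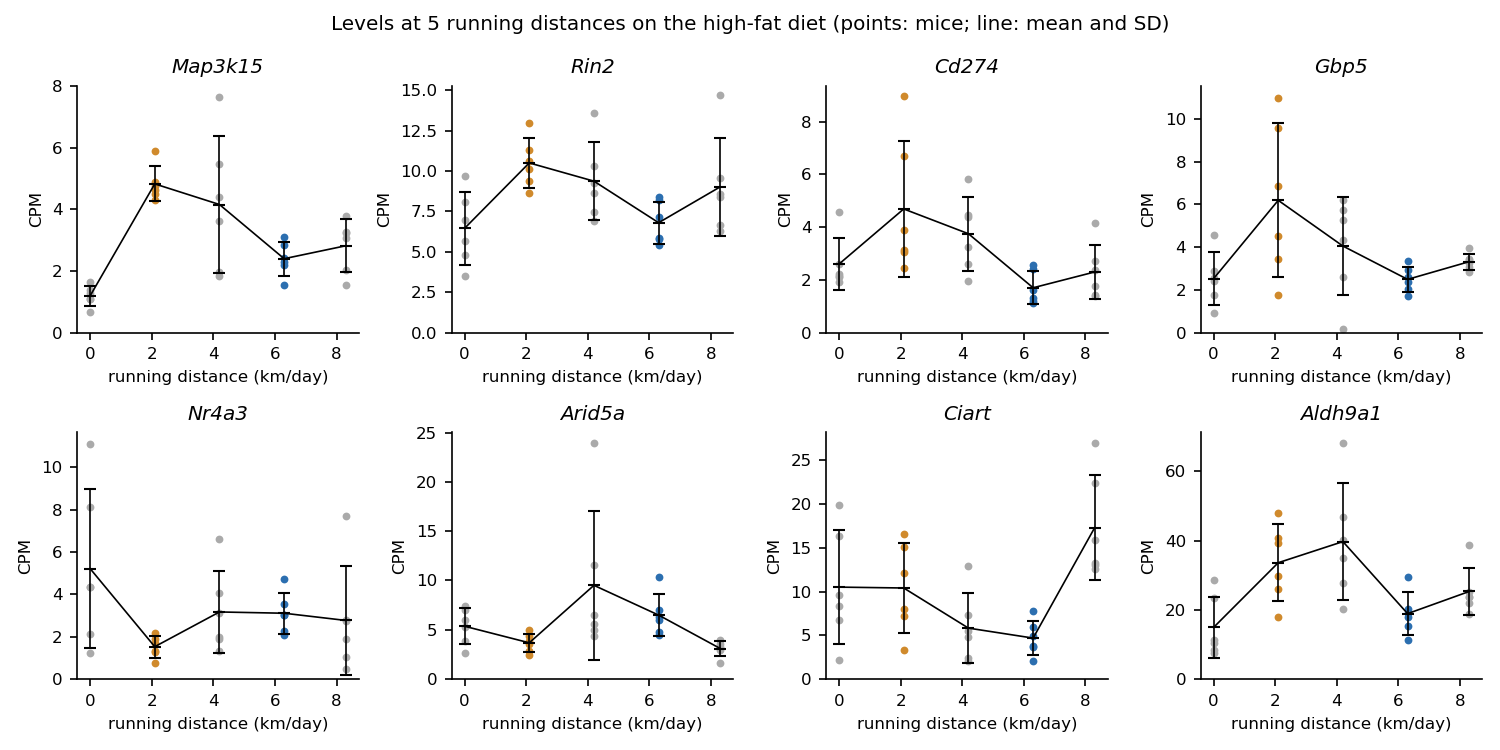
CPM of 8 named genes against the running distance in km/day for the 5 high-fat groups, with 1 point per mouse (orange for HFD-25%, blue for HFD-75%, grey for the other groups) and the mean with its SD joined by a line. Map3k15 is lowest at 0 km/day and highest at 2.1 km/day, and Ciart is highest at 8.3 km/day.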

How the data were processed

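Polyadenylated RNA of 1 gastrocnemius per mouse was sequenced in pairs of reads by Novogene for the authors. Reads were aligned with HISAT2 2.0.5 and counted on genes with featureCounts 1.5.0-p3. The values deposited are whole-number counts per gene and library, without normalization. The chromosome accessions in the table are those of GRCm39, while the submitters' processing notes name mm10. The table lists 46893 features, of which 20574 were at 0 in the 12 libraries.

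Groups came from the treatment labels. Each value per mouse is a CPM, scaled with TMM factors over the 30 high-fat libraries. Genes that averaged 25 counts or more over the 12 libraries were tested in R 4.3.3 with edgeR 4.0.16 (quasi-likelihood F-test, two-sided, Benjamini-Hochberg adjustment over 12033 genes), a design of these 2 groups alone, and DESeq2 1.42.0 as an alternative. The limits of 25 counts and of 0.05 on the nominal p follow the study's methods. For single named genes, an exact two-sided permutation test of the mean of log2(CPM + 0.5) was run over the 924 splits of the 12 mice, added after seeing the data. The scripts were tested on simulated counts. The other alternatives were RLE size factors, no minimum count, a minimum of 100, a block for the mouse number, a joint fit of the 4 exercise groups, a slow fibre covariate, removal of ribosomal RNA-linked and mitochondrial features, removal of the mice numbered 1, and leaving out each mouse.

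The comparison, the 38 gene lists and the rules were chosen with earlier results of these data known. Genes were named by a rule: the 10 with the smallest p in each direction, the study's 12 dose-response genes, and of each list the 3 members with the smallest p among those at or under 0.05 and the most abundant member, which is given only for lists described at length. Genes and families outside the rule were picked with their values in view: the genes without overlap other than Map3k15, Rin2, Fancm, Ppan and Gm10355; Igkc, Csrnp1, Ier5, Sln, Hspa1a, Cfd, Nlrc5, Irf1, Gbp4, Gbp7, Gbp9, Tgtp2, H2-Q4, H2-K1, Tap2, Tapbp, Ifit1, Cish, Cd68, Sesn2, Eif2b4, Arntl, Dbp, Nr1d1, Trim63, Fbxo32, Bhlhe40, Myh7, Myh2, Myh1, Pdha1, Chek2, Wrn, Smc5, Dll4, Notch1, and the families Gbp and Irg, MHC class I, repair, Notch and stress response. The list of rRNA-linked features had a median of -0.07.

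Promoters were taken from a RefSeq table (GRCm38.p6), in which 40 of 49 named genes were matched. Replicates of 1 group differed by at least 16.3 times the sampling variance (chi-square per degree of freedom), so no pair within HFD-25% or within HFD-75% looked like 1 library deposited again. Pairs across groups were not compared. The labels do not say how mice were caged, and p-values set the differences between groups against the spread between these mice.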

Additional observations from a re-analysis of the deposited data

Results flagged for a closer look

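A mouse lay far from the other 5 of its group (a gap past the 95% critical value of Dixon's test) in 16 of 200 groups, that is 100 named genes in both groups, where chance flags about 1 in 20 groups.

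Mouse 1 of HFD-75% was far above its group in Perm1 (369 CPM, others 109 to 162), Pdha1 (721 CPM, others 298 to 376), Myh2 (10846 CPM, others 1083 to 3256) and Myh1 (15671 CPM, others 2161 to 5439). Mouse 1 of HFD-25% was far above in Pdha1 (649 CPM, others 281 to 361), Ier5 (35.6 CPM, others 17.4 to 21.8) and Insig1 (7.76 CPM, others 6.49 to 6.92).

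Igkc, the constant region of the immunoglobulin kappa light chain of B cells and plasma cells, was at 33.4 CPM in mouse 6 of HFD-75% and at 0 to 0.136 CPM in the rest of its group. Its log2 fold change of 4.9 (SE 1.71, exact permutation p = 0.987, while DESeq2 gave no p) rests on that mouse, and with the block it was 1.54.

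Mouse 2 of HFD-25% was far from its group in Zmat5 (10.1 CPM, others 8.49 to 9.09), Myc (5.67 CPM, others 2.74 to 3.74) and the clock gene Bhlhe40, where it was lowest (34.6 CPM, others 56.4 to 68.9). Single flags were Map3k15 in mouse 5 of HFD-25% (5.91 CPM, others 4.31 to 4.89), Mvd in mouse 6 of HFD-25% (16.4 CPM, others 4.25 to 7.25), Mt2 in mouse 2 of HFD-75% (35.8 CPM, others 11.4 to 17.1), the atrophy ligase gene Fbxo32 in mouse 5 of HFD-75% (1557 CPM, others 462 to 841) and Tap2 in mouse 3 of HFD-75% (9.65 CPM, others 6.5 to 7.52).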

How the results depend on the processing

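The count of 375 (nominal p of 0.05 or less) became 1378 of 26319 without a minimum count, 731 without the mice numbered 1 of both groups and 721 with the slow fibre covariate. Leaving out 1 mouse gave 245 (without mouse 6 of HFD-25%) to 812 (without mouse 1 of HFD-25%), with 570 without mouse 2 and 247 without mouse 3 of HFD-25%, and the cause was not tested. DESeq2, RLE factors, the higher minimum, the fit over 4 groups and removal of rRNA-linked and mitochondrial features gave 252 to 445. The share of these genes that were higher, 30.1%, was 38.8% without a minimum and 25.3 to 40.0% with 1 mouse left out. The number past the adjusted p was 0 in every edgeR fit and 1 with DESeq2, where Map3k15 (-1.01) passed. Same-numbered mice deviated together in only 4 of 6 pairs (correlations over 0.1, range -0.28 to 0.433), so the numbers were not taken as pairs. With the replicate block 518 genes had a nominal p of 0.05 or less, 290 of them among the 375, 39.4% were higher, and 0 passed the adjusted p. Only 3 HFD-25% and 2 HFD-75% mice correlated best with their own number.

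Named genes turned direction in 21 refits and kept it in 2038, besides that of Map3k15 with DESeq2, and none of those that turned had a nominal p of 0.05 or less. With the block Myl2 was at 0.09 and Myh7 at 0.47, and with the slow fibre covariate Myh7 was at 0.51. Without the mice numbered 1, Lars2 was at 0.01, Myh2 at -0.29 and Myh1 at -0.21. With 1 mouse left out, Sesn1 ranged from -0.07 to 0.21, Fkbp5 from -0.07 to 0.23, Lars2 from -0.18 to 0.16, Myl2 from -0.37 to 0.35, Myh4 from -0.01 to 0.25, Perm1 from -0.2 to 0.43, Bhlhe40 from -0.16 to 0.02, Myh7 from -0.7 to 0.37, Myh2 from -0.52 to 0.5, Myh1 from -0.29 to 0.5 and Pdha1 from -0.13 to 0.36. Of 64 named genes with a nominal p of 0.05 or less, 11 were above it in the joint fit of the 4 exercise groups (Srxn1, Sod1, Mt1, Mt2, Myc, Phyhd1, Col8a1, Igf1, H2-K1, Tapbp and B230354K17Rik), 8 without the mice numbered 1, 3 without a minimum count, 2 with the slow fibre covariate, 1 with the higher minimum and 0 with DESeq2. With 1 mouse left out, 2 to 18 were above it, and 18 were so without mouse 3 and without mouse 6 of HFD-25%. List medians moved by less than the spread between mice in all 796 refits, but that spread was wide, and 18 of 38 medians turned direction in at least 1 refit. Among them, slow fibre genes (-0.26) reached 0.37, PPAR target genes (0.07) reached -0.13, their regulators (0.08) -0.11, the citric acid cycle (0.09) -0.04, and Schwann cell genes (0.01) -0.31. The collagen and denervation medians, 0 after rounding, could not be counted as turned. With 1 mouse left out they ran from -0.08 to 0.08 and from -0.09 to 0.13. The interferon median was the lowest of the lists in 18 of 21 alternatives. The lowest was the endothelial list with the higher minimum, the macrophage list without mouse 6 of HFD-25% and the slow fibre list without mouse 5 of HFD-75%.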

Other observations

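Of 30 genes of calcium handling and excitation, 24 were above 0 (median 0.1), and the lowest was Sln, a small inhibitor of the calcium pump, at -0.52. Heat shock genes had a median of 0.05 over 20 tested, with the inducible chaperone Hspa1a highest at 0.57. Genes of insulin signalling and glucose uptake had a median of 0.11 over 21, lipogenic genes 0.01 over 16, and genes of amino acid and polyamine metabolism 0.06 over 25. The fast 2A and 2X fibre genes were all above 0 (9 tested, median 0.19), as were the 12 genes that define skeletal muscle (median 0.19), while fast 2B genes had a median of 0.09 over 6 and slow fibre genes -0.26 over 15. Without mouse 6 of HFD-25% the slow fibre median turned to 0.37, that of fast 2B to -0.01, and that of fast 2A and 2X was 0.09. Without mouse 5 of HFD-75% the slow fibre median was -0.65. None of these groups but the amino acid list, through Aldh9a1, had a member at a nominal p of 0.05 or less in edgeR.

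Connective tissue and other cell types of the muscle gave medians of 0.04 over 33 matrix and remodelling genes, 0 over 21 collagens, 0.09 over 5 tendon, cartilage and bone genes and -0.06 over 12 genes of fibro-adipogenic progenitors. Adipocyte genes had a median of -0.01 over 9, with Cfd, the adipokine adipsin, highest at 0.81. Blood genes had a median of -0.02 over 6, Schwann cell and nerve genes 0.01 over 7, and genes of satellite cells and the neuromuscular junction 0.05 over 19. The myokine list had a median of -0.09 over 21, the antioxidant list 0.03 over 23, the denervation list 0 over 9 and the 12 dose-response genes 0.01.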
